A study of Mus musculus with 3 samples.

Results

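A set of 10 genes that the inflammatory transcription factor NF-kB is known to switch on was followed in myeloid cells of the mouse brain: the cytokines Tnf, Il1a and Il1b, the feedback genes Nfkbia, Nfkbiz and Tnfaip3, the stress-response gene Gadd45b, and the surface proteins Icam1, Ccrl2 and Gpr84. The genes were taken by name from 3 tables of unique molecular identifiers (UMIs, which count captured RNA molecules), and all 10 were listed in each table, among 11979 genes that all 3 tables list. The libraries comprised 1 from an MHC class II-deficient mouse and 2 from wild type mice (WT 1 and WT 2). Class II molecules present peptides to CD4 T cells, and the deficient animal is described as having almost no CD4 T cells. The cells of every library were CD11b+ CD45+ cells sorted from enzymatically digested brain. This gate admits microglia, which are the tissue macrophages of the brain, along with other myeloid cells. The deleted gene or allele, the sex and the strain are not stated in the labels, and only the WT libraries are called adult. With 1 deficient animal, no spread between deficient animals was measured.

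NF-kB dimers are held in the cytoplasm by IκB proteins until Toll-like receptors, TNF or IL-1 receptors set off the degradation of these inhibitors, and the dimers then enter the nucleus. Among the genes they switch on are inflammatory cytokines and genes that feed back on the pathway itself. Nfkbia encodes IκBα, which takes NF-kB back out of the nucleus, Tnfaip3 encodes A20, which edits ubiquitin chains upstream of the kinase complex, and Nfkbiz encodes IκBζ, a nuclear IκB that acts on secondary response genes. In microglia these genes are known to respond fast to injury, to microbial products and also to the isolation of the cells.

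The promoters of the 10 genes were read to show which of them carry the plainest form of the NF-kB site near their start. RefSeq promoters (build GRCm38.p6, from 250 bases before to 50 bases after the start) were found for 9 of 10 genes, in 12 entries. They were searched on both strands for GGGNNTTTCC, an NF-kB motif, and for TGANTCA, an AP-1 motif bound by Fos and Jun dimers, and neither pattern overlaps the other. The NF-kB motif was in Nfkbia and Tnfaip3, and the AP-1 motif in Il1a and Tnfaip3. Of all 32851 mouse promoters of this length, 1.63% hold the NF-kB motif and 7.81% the AP-1 motif. The 3 promoters with a match follow, 5′ to 3′ on the strand of the gene, with each match in capitals: Nfkbia on the minus strand at chr12:55492598-55492897 (NF-kB, reverse orientation), Tnfaip3 on the minus strand at chr10:19015361-19015660 (AP-1 forward, then NF-kB reverse) and Il1a on the minus strand at chr2:129309923-129310222 (AP-1 forward). A match describes letters only, and its absence from the other promoters says nothing on the binding of a factor.
Nfkbia: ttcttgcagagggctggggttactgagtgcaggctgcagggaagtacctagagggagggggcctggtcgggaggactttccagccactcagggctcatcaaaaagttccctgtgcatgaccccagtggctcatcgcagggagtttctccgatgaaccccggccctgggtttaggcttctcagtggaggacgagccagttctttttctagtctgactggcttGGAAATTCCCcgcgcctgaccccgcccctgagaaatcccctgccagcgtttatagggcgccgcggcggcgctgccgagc
Tnfaip3: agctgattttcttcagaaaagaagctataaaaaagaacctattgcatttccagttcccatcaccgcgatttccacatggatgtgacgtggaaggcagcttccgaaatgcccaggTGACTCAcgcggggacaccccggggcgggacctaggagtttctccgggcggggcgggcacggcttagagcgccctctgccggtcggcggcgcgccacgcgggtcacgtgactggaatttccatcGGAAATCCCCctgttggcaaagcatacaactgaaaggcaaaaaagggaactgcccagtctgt
Il1a: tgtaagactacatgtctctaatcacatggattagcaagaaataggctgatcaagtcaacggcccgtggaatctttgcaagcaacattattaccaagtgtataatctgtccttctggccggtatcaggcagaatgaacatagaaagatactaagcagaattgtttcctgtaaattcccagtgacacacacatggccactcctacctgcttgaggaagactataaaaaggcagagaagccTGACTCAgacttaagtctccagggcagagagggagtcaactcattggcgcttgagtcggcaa

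The deficient library held 2278 barcodes and 6616662 UMIs, against 4589 barcodes and 16230216 UMIs in WT 1 and 4815 barcodes and 17293844 UMIs in WT 2. After filtering, 2257 deficient, 4340 WT 1 and 4667 WT 2 cells were kept (median depth 2824, 3384.5 and 3338 UMIs), and 13 to 30 barcodes were shared by each pair of libraries. The class II genes H2-Aa, H2-Ab1 and H2-Eb1 were listed in both WT tables and were missing from the list of the deficient library, as its label says. Cells were classed by their UMIs of marker genes per 10000 UMIs. Microglia-like cells (at least 100 microglial marker UMIs per 10000, with few of any other class) made up 2190 deficient cells (97.0%), 3907 WT 1 cells (90.02%) and 4406 WT 2 cells (94.4%). The microglial marker P2ry12 stood at 4123 CPM, a unit that divides UMIs by library size, in the deficient library, 4178 CPM in WT 1 and 4768 CPM in WT 2. It belongs to the marker list of the class rule, so the rule itself favours cells high in it. The summed neutrophil markers in these same cells came to 48.9 CPM in the deficient library, 1168 CPM in WT 1 and 617 CPM in WT 2. Their part in the differences between libraries was not tested, apart from the carry-over of Il1b given with its cells and the fit on cells without such UMIs.

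In microglia-like cells, 4 of the 10 genes were lower in the deficient library than in WT and none was higher: the cytokines Il1a and Il1b and the feedback genes Nfkbiz and Tnfaip3. Nfkbiz fell the most of these, to 0.286 of its level in WT 1 and 0.420 of that in WT 2. Tnf, Nfkbia, Gadd45b, Icam1, Ccrl2 and Gpr84 did not pass the test. The test was edgeR's quasi-likelihood test on UMIs summed per library, with Benjamini-Hochberg adjustment over 11885 genes and a threshold of 0.05. By this rule, 6.23% of all genes were called lower and 1.41% higher. The median log2 fold change (deficient minus WT) of the 10 genes was -0.30, beside -0.002 over all genes tested. Set against 1 WT library at a time, this median was -0.045 without WT 1 and -0.54 without WT 2. The spread of each gene comes from the 2 WT libraries alone, with 1 residual degree of freedom. The quasi-likelihood fit draws this spread toward a trend over all genes tested, so the p-values rest on that pooling too. They also rest on the assumption that deficient animals vary as the WT libraries do.

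Il1b encodes the precursor of the secreted cytokine interleukin-1β (mm10, chromosome 2, 129364570 to 129371139, minus strand). It stood at 53.1 normalised CPM in deficient microglia-like cells, 146 CPM in WT 1 and 115 CPM in WT 2. The deficient value lay below both WT values, and edgeR gave a log2 difference of -1.30 ± 0.15 (SE) with an adjusted p of 0.000156. Il1a, the alarmin interleukin-1α encoded nearby (chromosome 2, 129299610 to 129309972, minus strand), stood at 166 CPM in the deficient library, 261 CPM in WT 1 and 239.8 CPM in WT 2. The WT libraries were close to each other and the deficient one lay apart, and edgeR gave a log2 difference of -0.59 ± 0.10 (SE) with an adjusted p of 0.00298. The call of Il1a was lost in cells with no UMI of another class's markers (log2 fold change -0.47, adjusted p = 0.276, edgeR) and in cells with at most 2 immediate early UMIs (-0.40, adjusted p = 0.193), sets with fewer cells, within a range of 0.000581 to 0.276 over its alternatives. Over all retained cells, without regard to class, the Il1b difference was -0.84 with an adjusted p of 0.0502 in edgeR, the highest of its alternatives, which began at 7.2e-14.

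Tnf, the cytokine that itself activates NF-kB (chromosome 17, 35199381 to 35202007, minus strand), stood at 109.97 CPM in the deficient library, 135.7 CPM in WT 1 and 77.4 CPM in WT 2. The deficient value lay between the WT values, and the log2 fold change of 0.05 (SE 0.24) did not pass (adjusted p = 0.935, edgeR). Its direction turned with the WT library used: 0.51 without WT 1 and -0.30 without WT 2.

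Nfkbiz (chromosome 16, 55811375 to 55838899, minus strand) stood at 76.5 CPM in deficient microglia-like cells, 267 CPM in WT 1 and 182 CPM in WT 2, and edgeR gave a log2 difference of -1.55 ± 0.20 (SE) with an adjusted p of 0.000373. Tnfaip3 (chromosome 10, 19000910 to 19015657, minus strand) stood at 56.9 CPM in the deficient library, 153 CPM in WT 1 and 109 CPM in WT 2, and edgeR gave a log2 difference of -1.20 ± 0.18 (SE) with an adjusted p of 0.00128. Both genes were lowest in the deficient library by more than the WT libraries differed from each other. The Nfkbiz call was lost in cells with at most 2 immediate early UMIs, at -0.43 (adjusted p = 0.651, edgeR; range over its alternatives 6.25e-21 to 0.651). The Tnfaip3 call was not made by DESeq2 (log2 fold change -1.20, adjusted p = 0.0776) nor in cells with no UMI of another class's markers (-0.69, adjusted p = 0.129), where its alternatives ranged down to 5.91e-07. Nfkbia (chromosome 12, 55489410 to 55492647, minus strand) stood at 684 CPM in the deficient library, 1119.8 CPM in WT 1 and 616 CPM in WT 2. The deficient library lay between the WT libraries, and edgeR gave a log2 difference of -0.34 ± 0.26 (SE) with an adjusted p of 0.517, and the value was 0.15 without WT 1. Gadd45b, a stress-induced regulator of kinase signalling and DNA demethylation (chromosome 10, 80930073 to 80932204, plus strand), stood at 74.6 CPM in the deficient library, 90.8 CPM in WT 1 and 44.1 CPM in WT 2. It too lay between the WT libraries (log2 fold change 0.15, SE 0.31, adjusted p = 0.840, edgeR).

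The surface proteins did not pass the test. Icam1, the adhesion ligand of leukocyte integrins (chromosome 9, 21015985 to 21028817, plus strand), stood at 283 CPM in the deficient library, 346 CPM in WT 1 and 289.5 CPM in WT 2 (log2 fold change -0.17, SE 0.12, adjusted p = 0.490, edgeR). Gpr84, a receptor for medium-chain fatty acids (chromosome 15, 103308235 to 103310612, minus strand), stood at 147 CPM in the deficient library, 196 CPM in WT 1 and 153 CPM in WT 2 (log2 fold change -0.25, SE 0.14, adjusted p = 0.357, edgeR). Both were lowest in the deficient library, close under WT 2. Ccrl2, an atypical receptor that holds the chemoattractant chemerin (chromosome 9, 111054486 to 111057519, minus strand), stood at 160.1 CPM in the deficient library, 189 CPM in WT 1 and 102 CPM in WT 2, between the WT values (log2 fold change 0.14, SE 0.26, adjusted p = 0.824, edgeR).

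**Figure D1:**
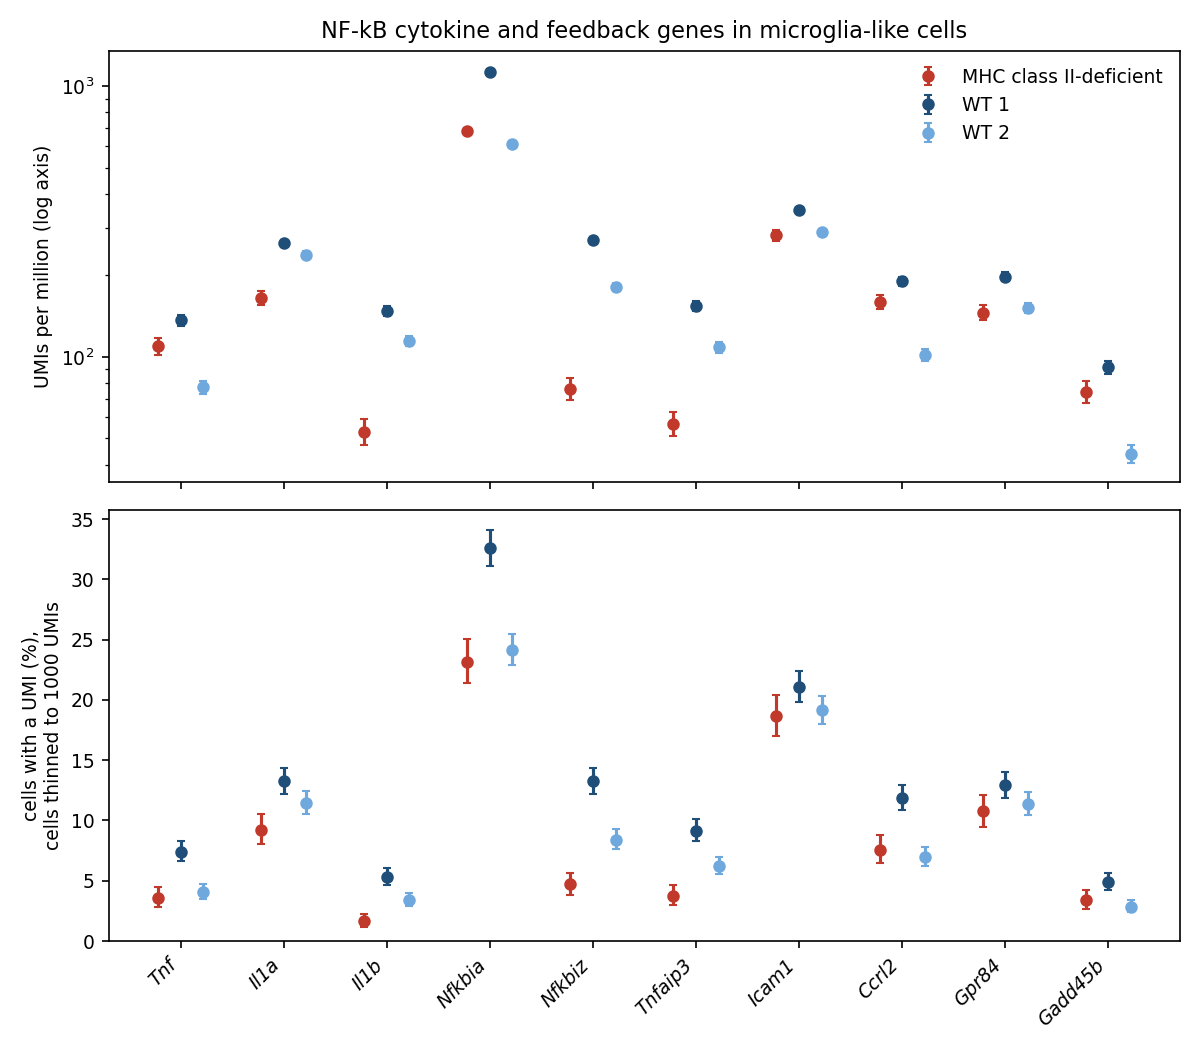
Upper panel: CPM over microglia-like cells (log axis); lower panel: percent of these cells with a UMI after thinning each to 1000 UMIs. Each point is 1 library, with exact 95% intervals for counting error only; the deficient point lies below both WT points in both panels for Il1a, Il1b, Nfkbiz, Tnfaip3, Icam1 and Gpr84, and WT 1 lies above WT 2 for every gene.

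The 2 WT libraries differed from each other in all 10 genes in the same direction. WT 1 stood above WT 2 for 10 of 10 genes, where 50.2% of all genes did so. The ratio of WT 1 to WT 2 ran from 1.09 for Il1a to 2.06 for Gadd45b, and it was at least 1.5 for Tnf, Nfkbia, Ccrl2 and Gadd45b. Of all genes, 1.35% reached a ratio of 1.5, counted with 1 added to each CPM, which lowers the ratios of genes with few UMIs. Tnf, Nfkbia, Ccrl2 and Gadd45b were the 4 genes in which the deficient library lay between the WT values. The other 6 genes lay below both WT libraries in the deficient library, as did 40.7% of all genes, and none lay above both, as 40.1% of all genes did.

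Immediate early genes, a list of 16 stimulus and digestion response genes, mostly shared with the 10 genes the order of WT 1 above WT 2. In the deficient library, 14 of the 16 lay below both WT libraries, beside 6 of the 10 genes and 40.7% of all genes. The summed level of the 16 in microglia-like cells was 8601 CPM in the deficient library, 20807 CPM in WT 1 and 14755 CPM in WT 2, and 15 of 16 were higher in WT 1 than in WT 2. Their part in the differences was not tested beyond the subset of cells with few such UMIs. In the deficient library 11 of the 16 were called lower and none higher, with a median log2 fold change of -1.01, while DESeq2 called 4. Fos, which dimerises with Jun to form AP-1, stood at 814 CPM in the deficient library, 2925 CPM in WT 1 and 1708 CPM in WT 2 (log2 fold change -1.51, adjusted p = 0.00285, edgeR). Jun fell by 1.01 on the log2 scale (adjusted p = 0.00441, edgeR), and Junb, at 1732 CPM in the deficient library, 3108 CPM in WT 1 and 2082 CPM in WT 2, did not pass (adjusted p = 0.125, edgeR). The largest falls were those of Ier5, at 144.4 CPM in the deficient library, 1384 CPM in WT 1 and 1044 CPM in WT 2, and of Fosb, at 86.2, 413 and 275 CPM.

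The wider pathway was read from a list of 59 other NF-kB genes (subunits, kinases, adaptors, receptors and targets), of which 55 could be tested. In deficient microglia-like cells 9 were lower, none was higher and 46 did not pass in edgeR, while DESeq2 called 5. Their median log2 fold change was -0.30, and it came to -0.18 without WT 1, -0.057 in cells with no UMI of another class's markers and -0.039 in cells with at most 2 immediate early UMIs. Otulin, which removes linear ubiquitin chains, stood at 10.1 CPM in the deficient library, 41.5 CPM in WT 1 and 38.4 CPM in WT 2 (log2 fold change -1.99, adjusted p = 1.04e-05, edgeR). Ier3, an early response gene, stood at 89.2 CPM in the deficient library, 315 CPM in WT 1 and 165 CPM in WT 2 (log2 fold change -1.42, adjusted p = 0.0117, edgeR). The other 7 genes called lower, named after their values were seen, were the subunits Rela (-0.71) and Rel (-0.35), the inhibitor Nfkbib (-0.45), the chemokine Cxcl10 (-0.84), the receptor Tlr2 (-0.41), the inflammasome sensor Nlrp3 (-0.61) and the kinase Mapkapk2 (-1.25). The 3 genes with the most UMIs did not pass. The chemokine Ccl4 stood at 1247 CPM in the deficient library, 2214 CPM in WT 1 and 1008 CPM in WT 2, and Ccl3 at 693, 1524 and 636 CPM, each with the deficient library between the WT libraries. Cd14, the lipopolysaccharide co-receptor, stood at 502 CPM in the deficient library, 555 CPM in WT 1 and 580.3 CPM in WT 2.

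Per cell, the genes were uneven, and some were far more common than others. Microglia-like cells were thinned to 1000 UMIs each, which kept 2148 deficient, 3856 WT 1 and 4349 WT 2 cells and left out 42, 51 and 57 shallower ones. Nfkbia was the most common, in 23.2% of deficient, 32.6% of WT 1 and 24.2% of WT 2 thinned cells. Icam1 followed, in 18.7%, 21.1% and 19.2%. Tnf was then found in 3.58% of deficient cells, 7.42% of WT 1 cells and 4.07% of WT 2 cells, and unthinned in 6.85%, 16.8% and 10.1%. The cells with Tnf were fewest in the deficient library but held more of it: 2.52 thinned UMIs per positive cell in the deficient library, 1.54 in WT 1 and 1.34 in WT 2. Correspondingly, the 5% of cells richest in Tnf held 94.3% of its UMIs in the deficient library, 68.4% in WT 1 and 81.7% in WT 2. Gadd45b had the same order, with 1.88 thinned UMIs per positive cell in the deficient library, 1.48 in WT 1 and 1.26 in WT 2.

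Genes that fell were also found in fewer cells. After thinning, Nfkbiz was found in 4.70% of deficient microglia-like cells (3.85 to 5.68, exact Clopper-Pearson 95% interval), 13.3% of WT 1 cells (12.2 to 14.4) and 8.42% of WT 2 cells (7.61 to 9.28), and unthinned in 9.09%, 26.1% and 16.4%. Tnfaip3 was found in 3.77% of deficient cells, 9.15% in WT 1 and 6.23% in WT 2, and unthinned in 7.67%, 19.7% and 14.9%. The intervals of the 3 libraries did not overlap for Nfkbiz, nor for Tnfaip3 and Il1b. How many of all genes separate in this way was not counted, so this is no result about these genes. For Nfkbia, the thinned share in the deficient library (23.2%, interval 21.4 to 25.03) overlapped that of WT 2 (24.2%, 22.9 to 25.5) and lay below that of WT 1 (32.6%, 31.1 to 34.1). These intervals cover counting error within a library only. Neutrophil-like cells have low levels of Icam1 and Gpr84. After thinning, Icam1 was in 0 of 15 deficient, 5 of 267 WT 1 and 3 of 123 WT 2 neutrophil-like cells. Their unthinned median depths were 1942.5, 2985.5 and 3094 UMIs, against 2826.5, 3380 and 3326 in microglia-like cells. Free RNA and Icam1 made by the neutrophils cannot be told apart in these counts. With 15 deficient cells the upper limit was 21.8%, above the 18.7% of deficient microglia-like cells, so no bound is given.

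Il1b was concentrated in few cells. Microglia-like cells with at least 5 Il1b UMIs numbered 17 in the deficient library, 98 in WT 1 and 81 in WT 2, and held 83.1%, 76.2% and 84.9% of the microglial Il1b UMIs. Their microglial markers were lower than in cells without Il1b: a median of 209.9 against 339.96 per 10000 UMIs in the deficient library, 234 against 346 in WT 1 and 218 against 368 in WT 2. Their median UMIs of border-associated macrophage markers were 0 in every library. Free RNA carried over from neutrophils at the ratio of Il1b to neutrophil markers seen in neutrophil-like cells would come to 0.900%, 2.43% and 0.876% of microglial Il1b UMIs, and to at most 0.262% for any of the other 9 genes. Cd74, the class II invariant chain, was looked at after its values were seen. No deficient microglia-like cell had at least 20 Cd74 UMIs, while 15 WT 1 cells and 13 WT 2 cells did. Those cells held 12.4% of the microglial Il1b UMIs in WT 1 and 6.18% in WT 2, and at most 2.86% of those of any other of the 10 genes. With microglia taken from Leiden clusters instead, which leave out the cluster led by Pf4, Ms4a7 and Cd74, the Il1b log2 fold change was -0.98 (adjusted p = 1.65e-05, edgeR).

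The 10 genes were found together in the same microglia-like cells more often than their separate shares give. Other sets of genes were not counted in this way. With cells thinned to 1000 UMIs, 5 or more of the 10 genes were found in 68 deficient cells (3.17%), 221 WT 1 cells (5.73%) and 152 WT 2 cells (3.495%). The product of the single shares would give 0.0467% in the deficient library, 0.426% in WT 1 and 0.0985% in WT 2. At the other end, none of the 10 genes was found in 51.1% of deficient cells, 37.7% of WT 1 cells and 46.1% of WT 2 cells, where the product would give 39.3%, 23.2% and 34.6%. Cells with 5 or more of the genes were deeper before thinning, with medians of 3530.5, 4467 and 4725.5 UMIs, against 2811, 3264.5 and 3272.5 UMIs in cells with none. They held 59.8% of the thinned Tnf UMIs of the deficient library, 44.8% of those of WT 1 and 44.96% of those of WT 2, and 48.2%, 40.5% and 38.9% of those of Nfkbiz. Icam1 had 23.8%, 29.4% and 21.2% of its UMIs there.

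**Figure D2:**
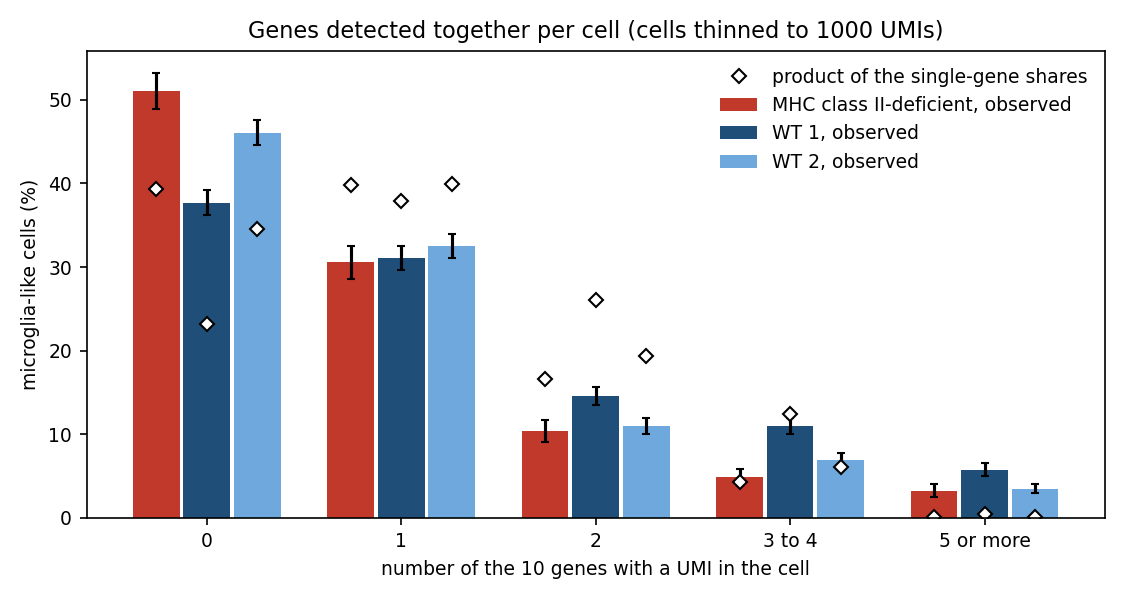
Percent of microglia-like cells (y axis) by the number of the 10 genes with a UMI after thinning to 1000 UMIs (x axis), as bars for each library with exact 95% intervals for counting error. Diamonds mark the product of the single-gene shares; the bars for 0 genes and for 5 or more genes stand above their diamonds in all 3 libraries, at 3.17% against 0.0467% for 5 or more genes in the deficient library.

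Every one of the 45 gene pairs was found in more cells than the product of the single shares, in each library. The ratio ran from 1.30 to 11.96 in the deficient library, from 1.30 to 4.35 in WT 1 and from 1.25 to 5.35 in WT 2, with medians of 3.35, 2.18 and 2.43. Tnf with Gadd45b had the highest ratio in both WT libraries and nearly so in the deficient one: 29 deficient cells held both against 2.62 from the product, 61 WT 1 cells against 14.02, and 27 WT 2 cells against 5.05. Tnf with Il1b was highest in the deficient library, with 15 cells against 1.25 (ratios 11.96 in the deficient library, 2.75 in WT 1 and 3.82 in WT 2). The feedback gene Nfkbia was found in 81.8% of Tnf-positive cells of the deficient library, 66.4% in WT 1 and 63.3% in WT 2. The feedback genes Nfkbiz and Tnfaip3 shared 27 deficient cells (ratio 7.09), 158 WT 1 cells (3.37) and 109 WT 2 cells (4.78). The lowest ratio of each library was a pair with Gpr84, Icam1 in the deficient library and Ccrl2 in both WT libraries. Gpr84 with Ccrl2 had a ratio of 1.94 in the deficient library, 1.30 in WT 1 and 1.25 in WT 2, and Gpr84 with Icam1 one of 1.30, 1.47 and 1.30. The difference between libraries was not tested.

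**Figure D3:**
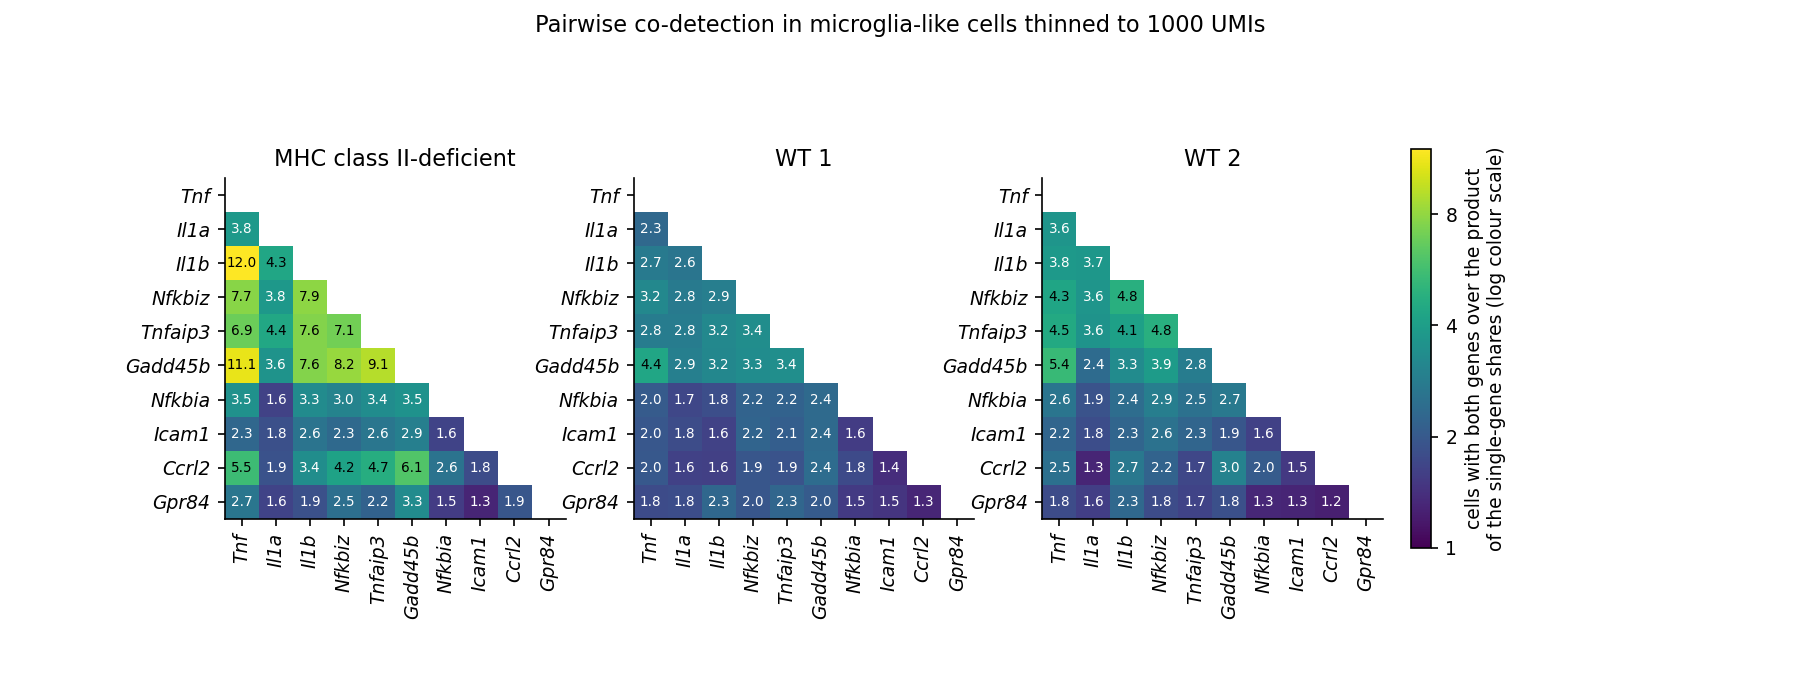
Ratio of cells holding both genes to the product of the single-gene shares, for each of 45 pairs (rows and columns are genes), in microglia-like cells thinned to 1000 UMIs, with 1 panel per library and a log colour scale. All ratios lie above 1; the highest ratio of each panel lies in the block of Tnf, Il1b, Nfkbiz, Tnfaip3 and Gadd45b, reaching 11.96 in the deficient library, and the lowest lies in the Gpr84 row.

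Over cells, the genes whose expression ran closest to the number of the 10 genes detected were immediate early genes. Among 2848 other genes, Atf3, a stress-induced transcription factor, came first, with Pearson correlations of 0.582 over 2148 deficient cells, 0.5985 over 3856 WT 1 cells and 0.611 over 4349 WT 2 cells. Fos, Egr1, Junb and Dusp1 followed, with mean correlations from 0.5485 to 0.575. The cells of a library share their source and handling, so these correlations are descriptions. Cells with 5 or more of the 10 genes had medians of 47.5, 66 and 61 immediate early UMIs per 1000 in the deficient library, WT 1 and WT 2, against 2, 7 and 5 in cells with none.

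Immediate early UMIs per cell were fewest in the deficient library. The median was 3 per 1000 UMIs in deficient microglia-like cells, 10 in WT 1 and 7 in WT 2. Cells with at most 2 such UMIs made up 46.5% of the deficient library, 8.20% of WT 1 and 13.3% of WT 2, and cells with 30 or more made up 7.12%, 18.0% and 10.2%. In cells with few immediate early UMIs, the pairwise excess was small or absent: summed over the 45 pairs, the ratio was 1.23 in the deficient library, 0.995 in WT 1 and 1.15 in WT 2, against 2.55, 2.01 and 2.17 in all microglia-like cells.

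Read in cells binned by their immediate early UMIs, the order of the libraries varied with the gene and with the bin. The bin of 30 or more has no upper limit, so its cells need not hold like numbers in each library. In cells with 30 or more immediate early UMIs (153 deficient, 695 WT 1 and 444 WT 2 cells), the mean number of the 10 genes found was 3.84 in the deficient library, 3.52 in WT 1 and 3.64 in WT 2. In cells with 6 to 29 it was 0.939, 0.938 and 0.783. Tnfaip3 was then found in 32.0% of deficient cells (24.7 to 40.04), 34.0% of WT 1 cells and 36.0% of WT 2 cells with 30 or more. Its share was also lowest in the deficient library in cells with 6 to 29, at 2.94%, 4.17% and 3.34%. The same order held with 3 to 5 (1.73%, 2.91% and 2.38%) and with 1 to 2 (0.813%, 2.51% and 2.14%). With 0 the Tnfaip3 shares were 1.15%, 0% and 1.49%. Il1b was found in 14.4%, 14.1% and 17.8% of those cells and was lowest in the deficient library in cells with 6 to 29 (0.839%, 3.94% and 1.65%), with 3 to 5 (1.15%, 1.89% and 2.06%) and with 1 to 2 (0.271%, 2.87% and 1.56%). Nfkbiz was lowest in the deficient library in cells with 30 or more, at 35.3% (27.7 to 43.4), 48.3% (44.6 to 52.1) and 55.2% (50.4 to 59.9), but not in those with 6 to 29, at 5.45%, 6.90% and 3.97%. It was lowest in the deficient library with 3 to 5 (0.962%, 2.62% and 1.98%) and with 1 to 2 (1.63%, 3.23% and 2.53%). With 0 it was not, at 1.54%, 0% and 1.49%. In cells with 30 or more, Gadd45b and Ccrl2 were highest in the deficient library: Gadd45b at 32.0% (24.7 to 40.04), 16.1% (13.5 to 19.1) and 13.1% (10.1 to 16.6), and Ccrl2 at 42.5% (34.5 to 50.7), 26.2% (23.0 to 29.6) and 16.9% (13.5 to 20.7). Tnf was at 30.1% (22.9 to 38.0), 21.9% (18.9 to 25.1) and 21.2% (17.5 to 25.3). These shares were not tested between genotypes.

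**Figure D4:**
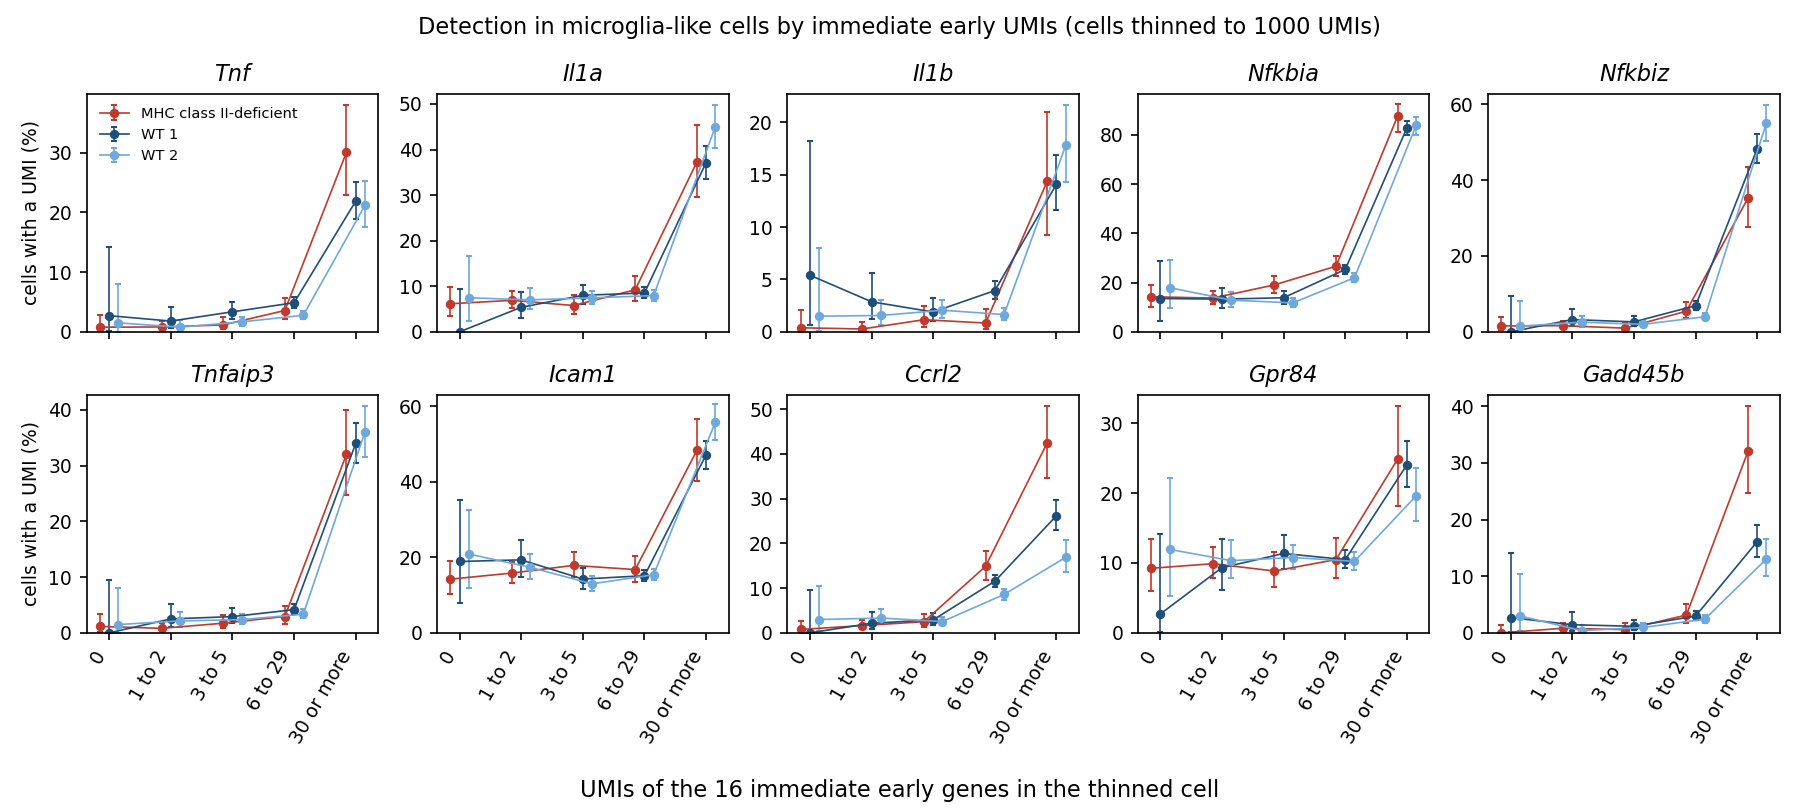
Percent of microglia-like cells with a UMI of each gene (y axis) by the number of UMIs of the 16 immediate early genes in the cell (x axis), in cells thinned to 1000 UMIs, with 1 line per library and exact 95% intervals for counting error. Every gene has its highest share at 30 or more immediate early UMIs in every library; there Ccrl2 and Gadd45b stand highest in the deficient library, at 42.5% and 32.0%.

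In the subset with at most 2 immediate early UMIs (998 deficient, 316 WT 1 and 580 WT 2 cells), the edgeR fit gave other values for several genes. Beside the lost call of Nfkbiz, Il1b was at a log2 fold change of -2.51 (adjusted p = 9.47e-07) and Tnfaip3 at -0.94 (adjusted p = 0.0450). Tnf was lower in the deficient library there, at -1.35 (adjusted p = 0.00739), whereas it was higher in cells with no UMI of another class's markers, at 0.93 (adjusted p = 0.0124); over its alternatives its adjusted p ran from 0.00739 to 0.99977. That second subset holds 873 deficient, 79 WT 1 and 297 WT 2 cells. Both subsets keep a far larger part of the deficient library than of WT 1. Few cells of the first subset held Tnf after thinning. With 1 to 2 immediate early UMIs these were 6 of 738 deficient, 5 of 279 WT 1 and 4 of 513 WT 2 cells. There the deficient share (0.813%) lay between those of WT 1 (1.79%) and WT 2 (0.780%). With 0 such UMIs they were 2 of 260, 1 of 37 and 1 of 67 cells, and the deficient share was lowest.

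The cells with many of the 10 genes lay in different Leiden clusters in the deficient and WT libraries, although the 10 genes were left out of the clustering genes. Cluster 5, led by Dusp8, Klf4 and Fosb, held 20 of the 68 such deficient cells (29.4%), 155 of 221 in WT 1 (70.1%) and 130 of 152 in WT 2 (85.5%). Cluster 8, led by Gdf15, Tagap1 and Oser1, held 45 of the deficient ones (66.2%) and was made up of 282 deficient, 1 WT 1 and 5 WT 2 cells. Cluster 7, led by Gm26802, Fam71a and Ier3, held 49 of those in WT 1 (22.2%), 11 in WT 2 (7.24%) and none in the deficient library. Most deficient cells sat in clusters of their own, with 1600 in cluster 2, against 67 WT 1 and 150 WT 2 cells. A cluster mostly of 1 library may be that library and not a cell state, and genotype and library cannot be told apart.

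Outside microglia, the 10 genes differed by cell class. Neutrophil-like cells numbered 18 in the deficient library, 278 in WT 1 and 135 in WT 2, classical monocyte-like cells 6, 44 and 26, and border-associated macrophage-like cells 7, 28 and 26. The class names rest on their markers: S100a8 led the neutrophil-like cells with 226068, 205060 and 222838 CPM, Pf4 the border-associated macrophage-like cells with 3067, 4255 and 3363 CPM, and Plac8 the classical monocyte-like cells with 6787, 3519 and 3829 CPM. The border-associated markers Cbr2, Cd163 and Lyve1 are not listed for the deficient library. With so few cells in the deficient library, no test was run in these classes.

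Il1b was far higher in these classes than in microglia in every library. In classical monocyte-like cells it stood at 5854 CPM in the deficient library (exact Poisson 95% interval 5035 to 6769), 2054 CPM in WT 1 and 3658 CPM in WT 2, and in neutrophil-like cells at 4436 CPM (3868 to 5064), 1362 CPM and 783 CPM. In border-associated macrophage-like cells it stood at 511 CPM (264 to 893), 2422 CPM and 1501 CPM, against 52.8, 147 and 115 CPM in microglia-like cells on the same scale. The deficient monocyte value rests on 1 cell, which held 175 of the 182 UMIs found in 2 of 6 cells. With the cell richest in Il1b left out of each library, a choice made after seeing the data, monocyte-like cells stood at 296 CPM in the deficient library, 1727 CPM in WT 1 and 3230 CPM in WT 2. In neutrophil-like cells, where the richest deficient cell held 88 of 219 UMIs, the values without it were 2749 CPM, 1315 CPM and 743 CPM. In border-associated macrophage-like cells, where 9 of 12 deficient UMIs lay in 1 cell, they were 139 CPM, 2085 CPM and 1213 CPM. Microglia-like cells still held 31.0% of all Il1b UMIs in the deficient library, 38.2% in WT 1 and 43.6% in WT 2, and cells without a class held 30.2%, 11.6% and 20.7%.

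Of these 4 classes, border-associated macrophage-like cells had the highest Nfkbiz level in every library. It stood there at 767 CPM in the deficient library (interval 455 to 1212), 1769 CPM in WT 1 and 979.9 CPM in WT 2, and in neutrophil-like cells at 365 CPM (216 to 576), 268 CPM and 208 CPM. The neutrophil interval of the deficient library overlapped those of both WT libraries, and without the richest cell of each library the order turned, at 188 CPM, 254 CPM and 195 CPM. Border-associated macrophage-like cells of the deficient library held 9 of their 18 Nfkbiz UMIs in 1 cell and stood at 485 CPM without it. Nfkbia in neutrophil-like cells stood at 1337 CPM (1034 to 1701), 450.4 CPM and 512 CPM, and Gadd45b at 405 CPM (247 to 626, 20 UMIs in 7 of 18 cells), 52.5 CPM and 56.2 CPM. Both were highest in the deficient library, and 1 of its cells held 32 of the 66 Nfkbia UMIs and 1 held 8 of the 20 Gadd45b UMIs. Without the richest cell of each library, Nfkbia stood at 711, 436 and 494 CPM and Gadd45b at 251, 47.8 and 49.1 CPM. Nfkbia was found in 61.1% of deficient neutrophil-like cells (35.7 to 82.7), 49.6% of WT 1 cells and 50.4% of WT 2 cells, so these shares overlapped.

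Il1a, Icam1 and Gpr84 were low in neutrophils. Microglia-like cells held 92.6% of the Il1a UMIs in the deficient library, 97.8% in WT 1 and 96.5% in WT 2, beside 96.8%, 86.9% and 91.8% of all UMIs. They held 97.04%, 97.5% and 96.9% of the Icam1 UMIs and 94.2%, 97.4% and 97.2% of the Gpr84 UMIs. Border-associated macrophage-like cells also had Il1a, at 213 CPM in the deficient library (5 UMIs), 31.9 CPM in WT 1 and 344 CPM in WT 2. In neutrophil-like cells Il1a was at 0 UMIs in 18 deficient cells (Poisson upper limit 74.7 CPM), 13.3 CPM in WT 1 and 14.4 CPM in WT 2, and Gpr84 at 20.3, 25.8 and 24.5 CPM. Ccrl2 was spread more widely, at 243 CPM in deficient, 109 CPM in WT 1 and 102 CPM in WT 2 neutrophil-like cells, and at 64.3, 232 and 448 CPM in classical monocyte-like cells. Without the richest cell of each library, Ccrl2 in neutrophil-like cells stood at 83.9, 96.5 and 89.8 CPM. Tnf was at 162, 49.3 and 27.4 CPM in neutrophil-like cells, the first of these from 8 UMIs of which 1 cell held 4.

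**Figure D5:**
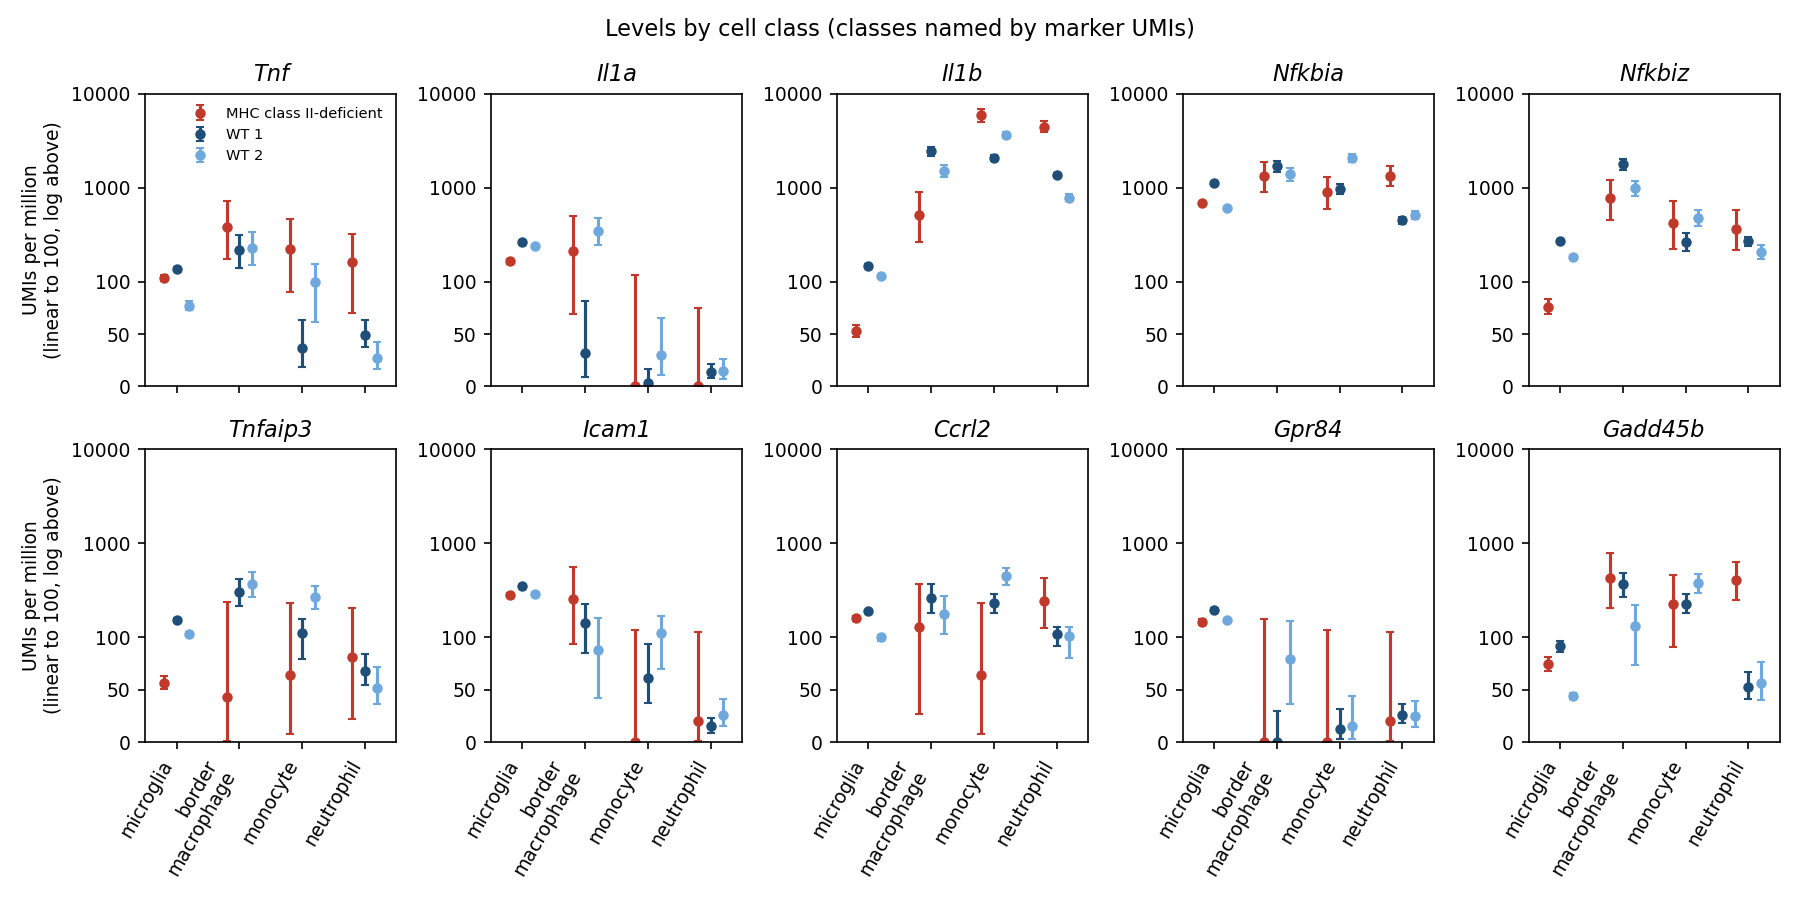
CPM (y axis, linear to 100 and log above) of each gene in microglia-like, border-associated macrophage-like, classical monocyte-like and neutrophil-like cells (x axis), with 1 point per library and exact Poisson 95% intervals for counting error. Il1b is lowest in the deficient library in microglia (52.8 CPM) and highest in it in neutrophils (4436 CPM); Il1a, Icam1 and Gpr84 are near 0 in neutrophils of every library.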

How the data were processed

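The authors' deposited values are raw UMI counts per gene and barcode, in 1 table per library, from 10x Genomics 3' libraries (per the labels' protocols). The submitters' processing notes name mm10, Cell Ranger 3.0 and Seurat 2.2; the authors' filters are not stated. Cells were kept at 500 or more UMIs, 200 or more genes and up to 10% mitochondrial UMIs. No doublet caller was run, so doublets can remain.

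The 10 genes, the gene lists and the marker lists were chosen with earlier results of these data known, and the class thresholds with marker values in view. A cell was microglia-like at 100 or more microglial marker UMIs per 10000, with under 200 of neutrophil, 20 of border-associated, 20 of classical and 10 of non-classical monocyte markers. Other classes needed under 100 microglial marker UMIs and their own threshold. Between 100 and 125 microglial UMIs lay 13 deficient, 18 WT 1 and 30 WT 2 cells, and between 75 and 100 lay 6, 17 and 9. Cells meeting no class, or more than 1, were left without one.

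Sums of UMIs over the microglia-like cells of a library were tested in R 4.3.3 with edgeR 4.0.16 (TMM, filterByExpr, quasi-likelihood, deficient minus WT), a step tested on simulated data. The simulated data gave every gene the same spread between libraries. They do not show how the test does for genes that vary more. Alternatives used DESeq2 1.42.0, limma 3.58.1, and Leiden clusters made without the 10 genes (scanpy 1.11.5, leidenalg 0.10.2). Splitting cells at 30 immediate early UMIs was chosen after seeing the data. Cells were thinned by random draws. Intervals are exact at 95% and cover counting error only. Named list genes were the 3 with the most UMIs and the 2 largest called changes in each direction. Positions are those of GENCODE release M21.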

Additional observations from a re-analysis of the deposited data

Results flagged for a closer look

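Il1b was higher in the deficient library than in both WT libraries in neutrophil-like cells and lower than in both in microglia-like cells. It stood at 4436 CPM in the 18 deficient neutrophil-like cells, against 1362 CPM in 278 WT 1 cells and 783 CPM in 135 WT 2 cells. In microglia-like cells it stood at 52.8, 147 and 115 CPM. With the cell richest in Il1b left out of each library, neutrophil-like cells stood at 2749, 1315 and 743 CPM. The difference between the classes was not tested, since 1 deficient library gives no spread.

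Nfkbiz went the same way by class, at 365 CPM in deficient neutrophil-like cells (18 UMIs, exact Poisson 95% interval 216 to 576), against 268 CPM in WT 1 and 208 CPM in WT 2. In microglia-like cells it stood at 76.1, 269 and 181 CPM. The neutrophil interval overlaps those of both WT libraries. Without the richest cell of each library the order turned, at 188, 254 and 195 CPM, and this difference too was not tested.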

How the results depend on the processing

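The count of the 10 genes called in microglia-like cells was 4 and lay between 3 and 4 under all 11 alternatives, and it was 3 with DESeq2, with all retained cells, in cells with no UMI of another class's markers and in those with at most 2 immediate early UMIs. The genes behind that count changed: in cells with no UMI of another class's markers, Tnf was called higher and Il1b and Nfkbiz lower, and with at most 2 immediate early UMIs, Tnf, Il1b and Tnfaip3 were called lower. Genes called over the whole table numbered 907, against 494 with DESeq2, 308 in cells with no UMI of another class's markers and 529 in cells with at most 2 immediate early UMIs; the last 2 sets hold fewer cells and fewer genes tested. DESeq2 called 5 of the pathway list against 9, and 4 of the immediate early list against 11; the cause was not tested. In cells with no UMI of another class's markers, the median log2 fold change of the 10 genes turned to 0.16, with Nfkbia at 0.16, Icam1 at 0.19 and Gpr84 at 0.35. With at most 2 immediate early UMIs, Tnf turned to -1.35, Ccrl2 to -0.67 and Gadd45b to -0.60, and Nfkbia to 0.086 and Icam1 to 0.13. Few of those cells held Tnf after thinning. Ccrl2 turned to -0.11 with cells thinned to 1000 UMIs; the causes were not tested. Leaving out WT 1 or WT 2, with no test, gave 0.51 and -0.30 for Tnf, 0.15 and -0.71 for Nfkbia, 0.65 and -0.24 for Ccrl2, and 0.76 and -0.28 for Gadd45b; Il1a, Il1b, Nfkbiz, Tnfaip3, Icam1 and Gpr84 stayed below 0. Those values are log2 ratios of normalised CPM. The summed pair ratio was 1.93 in the deficient library, 1.61 in WT 1 and 1.70 in WT 2 with thinning to 2000 UMIs, and 1.23, 0.995 and 1.15 with at most 2 immediate early UMIs. No paired analysis was possible because the deficient group has 1 library. The number of cells limits the deficient classes outside microglia, with 1 to 18 cells each.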
